A study of Homo sapiens with 4 samples.

Results

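RAD21 peaks in later introns were described in wild-type HCT116 cells, a human colorectal carcinoma line, that received no auxin. The members are peaks of the deposited RAD21 ChIP-seq list on chromosomes 1 to 22 whose summit lay in intron 2 or later of the Ensembl_canonical transcript of a protein_coding gene in GENCODE v44. A summit in intron 1 of another such transcript, in any annotated exon, or within 1 kb of a transcript 5′ end or a protein_coding gene 3′ end was left out. Of 56853 peaks in the list, 55201 were on chromosomes 1 to 22, 13529 of these had a summit in a later intron, and 10444 met every condition. The rule used positions only, and no height, sequence or motif orientation entered it. It still selects a kind of sequence: median GC of the summit window was 52.5% in members and 55.4% over all peaks on chromosomes 1 to 22.

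The study also produced RAD21 ChIP from HCT116_RAD21_AID cells without auxin and from the same cells given IAA and α-NAA (500 µM each) for 6 h, and an Input of the auxin-treated cells, the only Input among the samples. HCT116_RAD21_AID is 1 clone with an mAID degron on the RAD21 C-terminus and OsTIR1 delivered by lentivirus. Those libraries were not analysed here. The results come from 1 library without a replicate, so no p-value is given. Intervals printed with shares are 95% Wilson intervals that cover counting error only, and some shares are given without one. A peak list holds no transcript levels, so the identity of the cells could not be checked against marker genes.

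RAD21 is the kleisin subunit that closes the cohesin ring. Cohesin extrudes chromatin loops and is halted by the zinc-finger protein CTCF, most often when the CTCF motif points toward the arriving complex, so RAD21 peaks in interphase cells mostly lie at CTCF sites. Inside genes, cohesin also meets the transcription machinery, and introns after the first hold most of the transcribed sequence of long genes.

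Summit windows of 101 bases, from 50 bases before to 50 after each summit, are shown first because the motif results rest on them. All are on the plus strand of GRCh38 and were read from the reference genome. In the first 2, capitals mark the CTCF core, defined as CCA, any 2 bases, AG, any 2 bases and GGC on either strand. Both TRPM5 and KCNQ1 carried the core on the strand opposite to the host's coding strand. They were chosen by height and do not stand for all members, since 45.4% of members with 1 host and a core on 1 strand only had it on the coding strand.

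TRPM5, chr11:2428354-2428454: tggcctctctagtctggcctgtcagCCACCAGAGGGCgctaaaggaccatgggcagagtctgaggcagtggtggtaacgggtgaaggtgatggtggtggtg
KCNQ1, chr11:2531490-2531590: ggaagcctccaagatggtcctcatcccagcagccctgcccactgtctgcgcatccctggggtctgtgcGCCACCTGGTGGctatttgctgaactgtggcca

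The 3 highest members of all had no exact core. Capitals in their windows mark instead the best site of a 20-base weight matrix, which scores each base of a candidate site and was trained on RAD21 peaks outside later introns.

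CFAP45, chr1:159891690-159891790: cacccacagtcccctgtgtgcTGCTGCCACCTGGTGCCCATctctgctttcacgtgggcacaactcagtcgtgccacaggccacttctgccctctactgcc
MMRN2, chr10:86939516-86939616: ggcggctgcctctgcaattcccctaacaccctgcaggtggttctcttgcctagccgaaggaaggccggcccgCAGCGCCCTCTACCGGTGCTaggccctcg
ABTB2, chr11:34174465-34174565: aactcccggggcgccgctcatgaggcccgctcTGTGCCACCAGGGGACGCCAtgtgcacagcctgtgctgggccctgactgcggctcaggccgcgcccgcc

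The next windows are the highest member without a matrix site, in CCL1, which has no capitals, and the highest one with an AP-1 motif and no matrix site, in CACNA1A, whose motif is in capitals. AP-1 motifs are bound by FOS and JUN dimers and mark many enhancers.

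CCL1, chr17:34361633-34361733: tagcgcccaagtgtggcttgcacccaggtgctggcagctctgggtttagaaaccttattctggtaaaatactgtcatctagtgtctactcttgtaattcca
CACNA1A, chr19:13431125-13431225: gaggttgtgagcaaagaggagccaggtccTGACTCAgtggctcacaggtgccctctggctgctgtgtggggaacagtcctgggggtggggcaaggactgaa

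TMEM242 is the gene whose intron 3 holds the repeat cluster that the study imaged in living cells. Its first window lies inside those repeats and its second beside them, with the core in capitals.

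TMEM242, chr6:157310827-157310927: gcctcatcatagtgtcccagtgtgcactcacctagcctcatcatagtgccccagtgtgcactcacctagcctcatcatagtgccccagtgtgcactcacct
TMEM242, chr6:157314843-157314943: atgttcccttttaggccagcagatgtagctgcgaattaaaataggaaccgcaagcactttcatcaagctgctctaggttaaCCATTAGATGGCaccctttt

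Later introns held 18.9% of the peaks on chromosomes 1 to 22 on 25.0% of the sequenced bases. Their eligible sequence, the bases that meet the same positional rule, came to 689 Mb and carried 15.1 peaks per Mb. First introns under the same rule held 2788 peaks at 12.8 per Mb, and intergenic sequence 17515 peaks at 17.2 per Mb. The density in later introns was above that in first introns on 20 of 22 chromosomes and above the intergenic density on 3 of 22. Among chromosomes it ran from 11.4 per Mb on chromosome 13 to 26.9 per Mb on chromosome 17.

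Fold enrichment is the number of fragments at the summit over the local Input background, with 1 added to both. Its median over the members was 6.16, with quartiles of 3.87 and 11 and a range from 1.56 to 112. First-intron peaks were lower, with a median of 5.27, and intergenic peaks had a median of 6.09. The members' median was above that of first introns on 20 of 22 chromosomes and above the intergenic one on 10 of 22. Fold enrichment of at least 10 was reached by 2977 members, 28.5% (27.6 to 29.4), beside 27.4% of all peaks on chromosomes 1 to 22, a share near this background. First introns stood lower at 21.6% (20.1 to 23.1) and intergenic peaks higher at 30.8% (30.1 to 31.5).

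The depth behind a member was modest. The median summit held 52 fragments, against 44 in first introns and 56 in intergenic peaks, and the weakest members held 15. Local background sat near its lowest value in the list, 5.90 fragments, and reached at least 2 times that value in 6.03% of members (5.59 to 6.51), compared with 11.5% of intergenic peaks. The median peak was 434 bp wide. Members just inside the 1 kb limit, with a summit 1000 to 1500 bp from the nearest end, numbered 666 and had a median fold enrichment of 6.16. Just outside it, at 500 to 1000 bp, 720 peaks had a median of 5.95.

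An exact CTCF core lay within 50 bp of the summit in 2314 members, 22.2% (21.4 to 23). Windows of the same length 5 kb to either side held one in 0.388%, and 0.231% of all windows tiled over eligible later-intron sequence did, so the share at summits was 95.9 times the tiled one. First-intron peaks stood at 19.1% (17.7 to 20.6) and intergenic peaks at 19.5% (18.9 to 20.1), both below the interval of the members. With 1 mismatch allowed the share rose to 62.3%, against 5.03% of tiled windows. The weight matrix, at a score that 1% of tiled windows pass, found a site in 6975 members, 66.8% (65.9 to 67.7), compared with 61.0% (59.2 to 62.8) in first introns and 61.2% (60.5 to 61.9) in intergenic peaks. The matrix share was higher in later introns than in first introns on 20 of 22 chromosomes and than in intergenic peaks on 21 of 22.

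For matrix sites, the weakest of 4 ranges of height showed the widest gap to intergenic peaks. Between fold enrichments of 2 and 5, a matrix site was present in 42.4% of members (40.9 to 44), in 40.5% of first-intron peaks (37.9 to 43.2) and in 34.6% of intergenic peaks (33.4 to 35.7). At fold enrichments of 20 or more the shares were 93.3% (91.5 to 94.7), 92.1% (87.3 to 95.1) and 92.3% (91.1 to 93.4), and their intervals overlapped. For the exact core the gap was not widest there: the shares were 11.5% and 8.24% between 2 and 5, and 34.2% and 30.5% between 10 and 20.

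Height followed the motif. Members with a matrix site had a median fold enrichment of 7.96 (quartiles 5.01 and 13.6), and the 3469 without one had 3.77 (2.85 and 5.80). The corresponding medians were 8.99 with an exact core and 5.54 without. When members were ordered by height and cut into 10 equal groups, a matrix site was found in 14.9% of the lowest decile and in 93.2% of the highest, and every step between neighbouring deciles went upward. The exact core rose from 4.21% to 36.7%. The highest decile, with a median of 222 fragments, carried 32.9% of the summed fold enrichment of all members. Base composition did not follow height in 1 direction: median GC of the summit window was 57.4% in the lowest decile, 48.5% in the fifth and 60.4% in the highest.

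**Figure D1:**
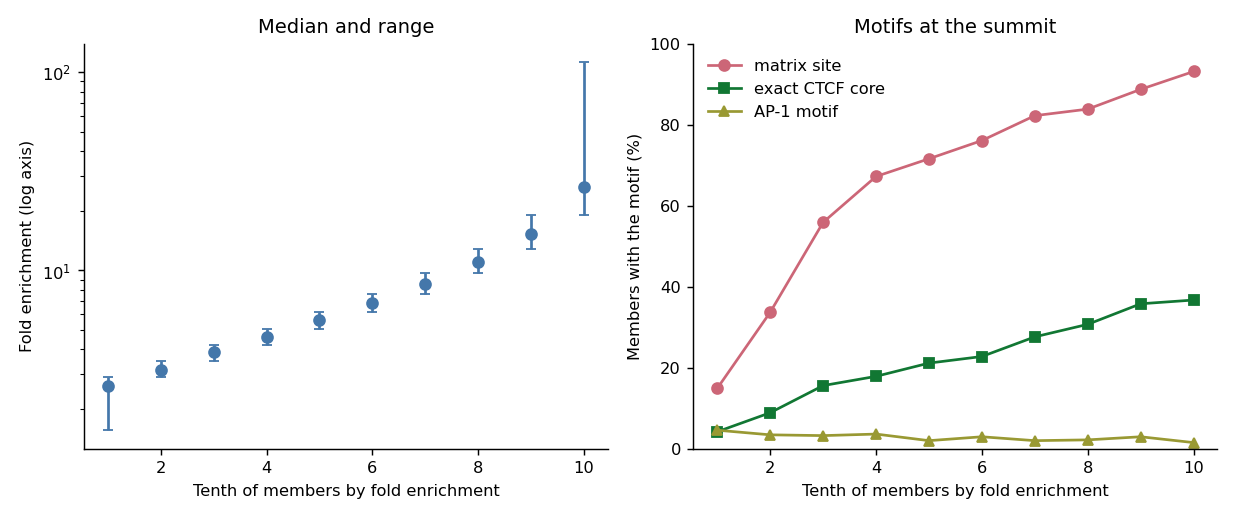
Fold enrichment and motif content of RAD21 peaks in later introns, in 10 equal groups ordered by fold enrichment. Left, median (point) and lowest to highest value (bar) of each group on a log axis; right, percent of members with a weight matrix site, an exact CTCF core or an AP-1 motif within 50 bp of the summit. The matrix share climbs from 14.9% to 93.2%, while the AP-1 share stays between 1.53% and 4.59%.

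No other searched motif came close to the CTCF enrichment. AP-1 (TGANTCA) was present in 299 members, 2.86% (2.56 to 3.20), against 3.02% of the windows 5 kb away and 3.04% of tiled windows. Members with an AP-1 motif had a median fold enrichment of 4.93, against 6.19 for those without it. Among members with no matrix site, the 125 with an AP-1 motif had a median of 3.33 and the 3344 without one 3.77. CACNA1A, the highest of the 125, reached 34.9. TEAD (GGAATG) stood at 5.50% (5.08 to 5.95) against 5.27% of tiles and RUNX (TGTGGTT) at 2.28% against 1.89%. Motifs that are all or mostly G and C were more frequent at summits than in tiles. SP/KLF (GGGCGGG) stood at 1.93% against 0.417%, KLF (GGGTGGGG) at 1.47% against 0.879% and ETS (CCGGAAG) at 0.469% against 0.192%. In the windows 5 kb away they stood at 1.07%, 1.48% and 0.393%. Against these windows KLF was not more frequent, and the ETS intervals overlapped (0.355 to 0.620 at summits, 0.316 to 0.487 away). The AT-rich GATA motif (AGATAA) was less frequent, at 3.12% against 7.61% of tiles and 5.93% of the windows 5 kb away. FOXA (TGTTTAC) stood at 1.32% against 1.57% of tiles and 1.31% of the windows 5 kb away. HNF4A (CAAAGTCCA), a motif of intestinal epithelium, was found in 7 members, 0.0670%, against 0.116% of tiles and 0.110% of the windows 5 kb away. Median GC was 52.5% in the summit windows and 44.6% in the windows 5 kb away, and the part of base composition in these motif differences was not tested.

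The summit tended to lie to 1 side of the core's centre. Among 2451 members with a core within 100 bp, the median summit lay 11.5 bp from the core's centre toward its GGC end, read along the core's own strand. The quartiles were -2.5 and 21.5 bp, and 62.3% of these summits lay within 20 bp of the centre. The summit was on that side in 71.4% of them (69.6 to 73.2), and in 81.7% (79.3 to 83.9) of the 1045 with fold enrichment of at least 10, where the median displacement was 14.5 bp. Intergenic peaks showed 71.9% (70.4 to 73.3) and first-intron peaks 67% (63.0 to 70.7). The GGC end is the 3′ end of the motif as CTCF motifs are usually written.

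**Figure D2:**
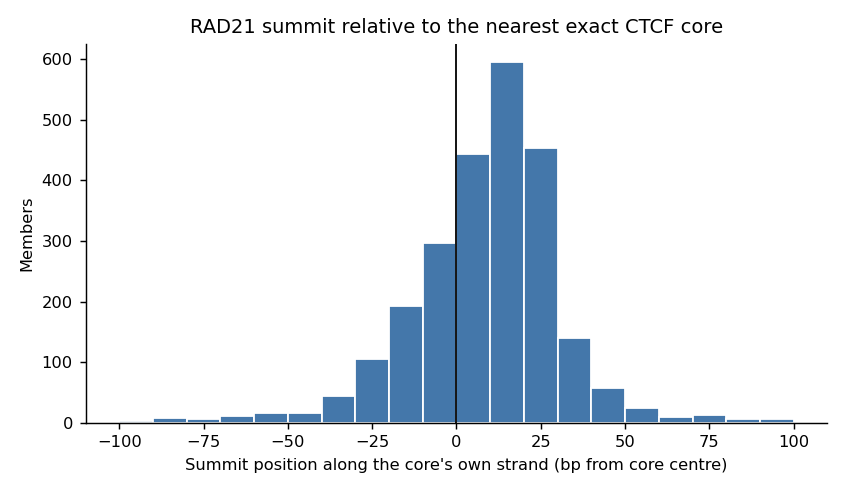
Position of the RAD21 summit relative to the nearest exact CTCF core for the 2451 members with a core within 100 bp, in 10 bp bins; the horizontal axis is the distance in bp from the core's centre along the core's strand, positive toward its GGC end. The fullest bin, 10 to 20 bp on the positive side, holds 595 members.

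Most exact cores in later introns had no RAD21 peak. Of 17688 cores in eligible sequence, 2511 lay within 100 bp of a peak summit, 14.2% (13.7 to 14.7). Occupancy was 18.0% (16.9 to 19.2) in introns under 5 kb and 10.6% (9.55 to 11.8) in introns of 100 kb or more.

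The orientation of occupied cores changed along the host gene. Over the 2273 members with 1 host and a core on 1 strand only, 45.4% (43.4 to 47.5) had it on the host's coding strand. Unoccupied cores gave nearly the same value, 45.8% (45.0 to 46.7) of 14057 cores that lay over 1 kb from every summit, and the intervals overlap. The members' value joined unlike groups. It was 40.7% (37.7 to 43.7) in the 1011 with fold enrichment of at least 10, an interval below that of unoccupied cores. In the 1262 under 10 it was 49.2% (46.5 to 52.0), an interval that overlaps it. Split by position along the host transcript, occupied and unoccupied cores parted in the 5′-most and 3′-most quintiles. In the 5′-most quintile of the transcript, cores within 100 bp of a summit were on the coding strand in 57.2% (50.1 to 64.1), and the share was 50.0% (45.2 to 54.8), 47.8% (43.6 to 52.1), 43.9% (40.02 to 47.8) and 39.7% (36.2 to 43.3) in the quintiles that followed. Unoccupied cores went from 43.2% (40.4 to 46.1) in the 5′-most quintile to 46.3% (44.7 to 48) in the 3′-most. In the quintiles between they stood at 43.3% (41.3 to 45.3), 46.9% (45.2 to 48.6) and 46.9% (45.3 to 48.5). Each of these intervals overlaps that of the occupied cores. Motifs on the coding strand in the 5′ part and on the other strand in the 3′ part both point into the gene. First-intron peaks, not split by position, had a coding-strand share of 46.6% (42.4 to 50.9) for cores on 1 strand only. For their matrix sites it was 47.0% (44.6 to 49.4). Both values are below the 57.2% of the 5′-most quintile.

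The same trend stood in the matrix sites, of which 6831 had 1 host. The coding-strand share of matrix sites was 59.3% (55.1 to 63.4) in the 5′-most quintile and 41.5% (39.3 to 43.8) in the 3′-most. Matrix sites and exact cores are not separate sets. An exact core was present in 32.2% (31.1 to 33.3) of members with a matrix site and in 2.02% (1.60 to 2.54) of those without. On 19 of 22 chromosomes the occupied cores had a higher coding-strand share in the first 2 quintiles than in the last 2. In host transcripts under 100 kb the share went from 55.8% (41.1 to 69.6) to 44.9% (38.3 to 51.7), and these intervals overlap. In those of 100 kb or more it went from 57.6% (49.5 to 65.4) to 37.6% (33.5 to 41.9). The trend was wider among high peaks. With fold enrichment of at least 10 it went from 70.4% (59.0 to 79.8; 71 cores) to 35.1% (30.2 to 40.2; 348 cores), and under 10 from 49.1% (40.2 to 58.1) to 44% (39.1 to 49.1), 2 intervals that overlap. Expressed as occupancy, cores on the coding strand were occupied in 16.7% (14.0 to 19.8) of cases in the 5′-most quintile and those on the other strand in 10.2% (8.29 to 12.5). In the 3′-most quintile the order was the opposite, 14.5% (13.0 to 16.1) against 18.3% (16.8 to 19.9).

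**Figure D3:**
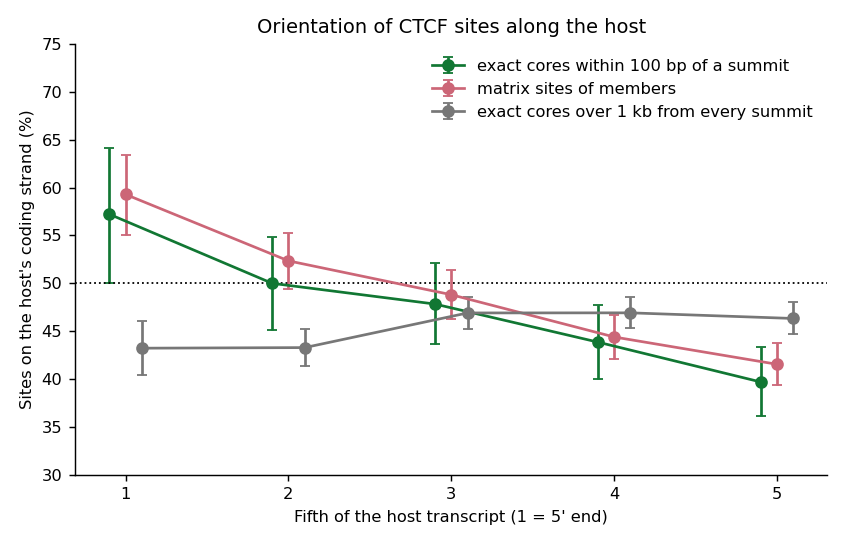
Percent of CTCF sites on the host's coding strand in 5 equal parts of the host transcript, from its 5′ end (1) to its 3′ end (5), with 95% Wilson intervals. Occupied exact cores fall from 57.2% to 39.7% and matrix sites of members from 59.3% to 41.5%, while cores over 1 kb from every summit lie between 43.2% and 46.9%.

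Neighbouring members of 1 gene were also compared by orientation. Among 2976 pairs of consecutive matrix sites in the same host, 53.4% (51.6 to 55.2) pointed the same way, 25.5% (24 to 27.1) pointed away from each other and 21.1% (19.6 to 22.6) pointed toward each other. The convergent pairs were the farthest apart, with a median gap of 43.5 kb, compared with 27.5 kb for pairs in the same direction and 21.9 kb for divergent pairs. The 487 pairs of exact cores were spaced in the same order for convergent pairs, at 80.6 kb, whereas divergent pairs stood at 44.2 kb and pairs in the same direction at 34.6 kb. Members share their genes in these pairs and are not independent.

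Peak density depended strongly on the GC content of the intron. Introns with under 38% GC carried 7.72 peaks per Mb, those of 38 to 42% GC 11.2, those of 42 to 48% GC 19.3, and those of 48% GC or more 42.5. Height did not follow this order, with median fold enrichments of 6.09, 6.38, 6.30 and 5.65 in the same groups. A matrix site was present in 72.8% of members in the introns poorest in GC and in 60.2% in the richest.

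Shorter introns were denser. Density fell from 20.6 per Mb in introns under 5 kb to 8.72 per Mb in introns of 200 kb or more. On coarser bins it went from 18.4 per Mb in introns under 20 kb to 10.7 per Mb in those of 100 kb or more. Between the same bins within a GC class, it went from 9.11 to 6.62 per Mb under 38% GC, from 11.8 to 10.1 at 38 to 42%, from 19.9 to 15.9 at 42 to 48% and from 44.3 to 44.6 at 48% or more. Density near host exons was also higher, at 19.8 per Mb within 1 kb of an exon of the host transcript and 9.17 per Mb at 50 kb or farther. Intron 2 had 13.5 peaks per Mb, and introns 3, 4 and 5 had 14.8, 15.2 and 14.3. Introns 6 to 10 had 16.5, those over 10 had 15.6 and last introns 18.3, so the rise with intron number was not steady. Along the gene, density went from 12.9 per Mb in the 5′-most quintile to 18.8 per Mb in the 3′-most. Within the intron it was level, with 14.8 per Mb upstream of its midpoint and 15.5 per Mb downstream of it.

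**Figure D4:**
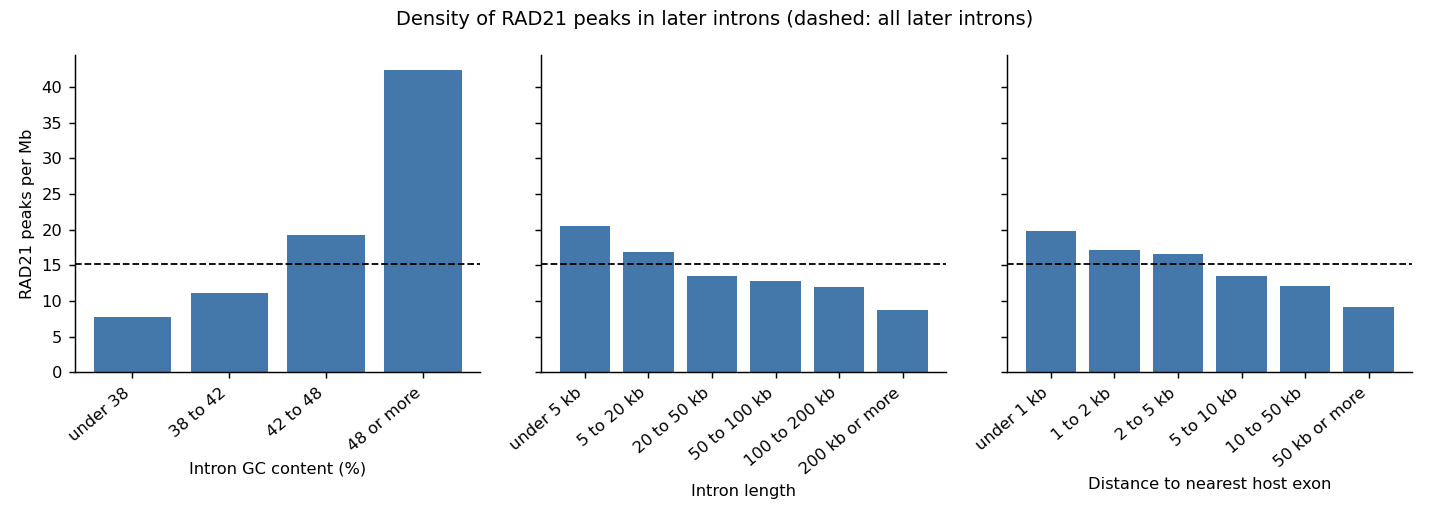
RAD21 peaks per Mb of eligible later-intron sequence by intron GC content, intron length and distance to the nearest exon of the host transcript; the dashed line is the density over all later introns, 15.1 per Mb. The bars run from 7.72 to 42.5 per Mb across GC classes and from 20.6 to 8.72 per Mb across length classes.

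The members lay in 8434 introns of 4980 host genes, out of 15367 protein_coding genes with eligible later-intron sequence. A single member was found in 2821 hosts, 2 to 4 members in 1704, and 10 or more in 83, which together held 1129 members. More than 1 host was assigned to 244 members, and 692 members also lay inside a lncRNA gene body. A promoter peak, meaning a summit within 1 kb of the 5′ end of the canonical transcript, stood in 36.1% of hosts (34.7 to 37.4) and in 36.7% of genes without a member (35.7 to 37.6). Among genes with 10 to 50 kb of later-intron sequence the shares were 34.1% (31.9 to 36.3) and 38.9% (37.4 to 40.5). The intervals overlapped under 10 kb, at 30.9% (27.3 to 34.6) and 34.1% (32.9 to 35.3). They also overlapped at 50 to 200 kb, at 39.6% (37.4 to 41.9) and 44.5% (41.2 to 47.9). At 200 to 500 kb the order was the reverse, 39.0% (34.9 to 43.3) and 28.2% (16.5 to 43.8), with overlapping intervals. At 500 kb or more only 3 genes had no member. The nearest other peak of any class was a median of 13.7 kb away, against 12 kb for first-intron and 11.6 kb for intergenic peaks.

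The highest members stood in genes of unrelated function. CFAP45, a protein of cilia and flagella, held the top member in its intron 2, with a fold enrichment of 112 from 986 fragments. MMRN2, an extracellular matrix glycoprotein of endothelium, followed with 107 in its intron 6, and ABTB2 with 106 in intron 3. TRPM5, a cation channel of taste cells, reached 87.2 in intron 3. GNAT1, the transducin subunit of rod photoreceptors, reached 81.4 in intron 7, only 0.031 kb from an exon. KCNQ1, a potassium channel of heart and epithelium inside an imprinted domain, held 2 of the 10 highest members, both in intron 2, at 78.4 and 76.8. NOL4L had 76.4 and SEPTIN9, a septin of the cytoskeleton, 74.4. All 10 carried a matrix site and 3 of them an exact core. The highest members without a matrix site were in CCL1 (59.3), a chemokine gene, RTL1 (51.0) and SYN3 (50.0), a synapsin.

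The 10 genes with the most members included several long genes known for their roles in neurons, and many of their peaks were weak. RBFOX3, the neuronal splicing factor known as NeuN, held 46 members in 368 kb, a density of 125 per Mb. Its median fold enrichment was 3.08, 7 members reached 10, and the 4 highest, at 53.8, 39.6, 38.4 and 35.7, all carried a matrix site, compared with 16 of its 46. PTPRN2, a phosphatase-like protein of secretory granules, held 37 members with a median of 4.06. DLGAP2, a postsynaptic scaffold, had 27 members (median 4.49), TSNARE1 22 (2.89), CDH4, a cadherin, 21 (5.22) and TBCD, a tubulin folding cofactor, 17 (3.66). CAMTA1, a transcription activator, was higher, with 21 members and a median of 7.60. DLG2, another postsynaptic scaffold, spread 20 members over 2.09 Mb, a density of 9.58 per Mb. SDK1, an adhesion protein of synapses, had 18 members with a median of 5.17.

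The members of the 83 genes with 10 or more had a median fold enrichment of 4.97 and a median GC of 56.4%, against 6.30 and 52.5% for the rest. A matrix site was present in 55.3% of them and in 68.2% of the others. Several of these genes, such as RBFOX3 with a median member GC of 63.4%, TSNARE1 with 62.4% and PTPRN2 with 61.4%, had summits rich in GC.

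TTC34 differed from the others. It held 30 members, 28 of them in its intron 6 (chr1:2645564-2783608), with 1 matrix site among the 30. The summit window of 23 of these members had at least 1 other exact copy on chromosomes 1 to 22, compared with 255 of all 10444 members, 2.44% (2.16 to 2.76). Its median local background was 13.3 fragments, against a median of 6.63 over all members. How reads were shared among copies was not tested.

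**Figure D5:**
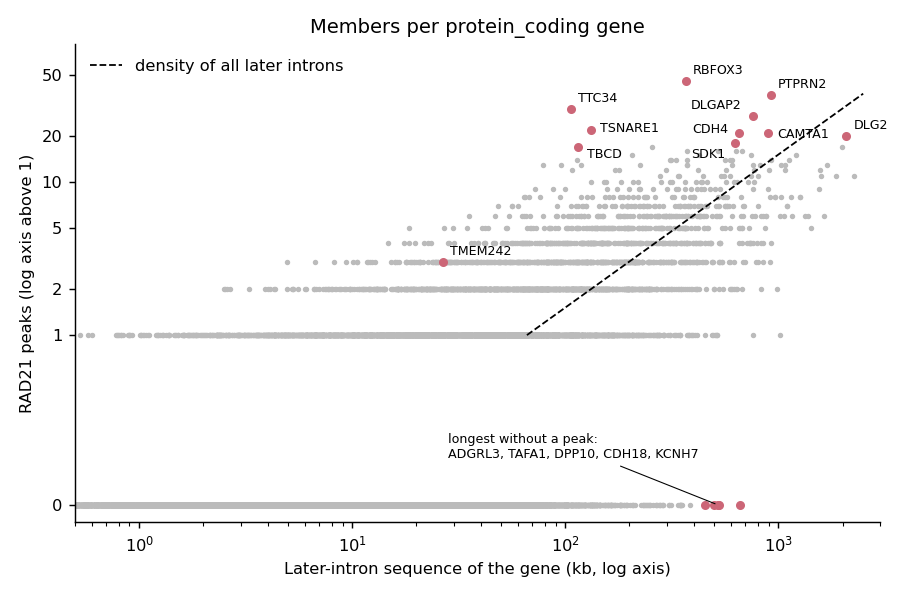
Number of RAD21 peaks in later introns against the eligible later-intron sequence of each of 15367 protein_coding genes (kb, log axis; vertical axis logarithmic above 1 and linear below it). Red points name the 10 genes with the most members, the 5 longest genes without any and TMEM242; the dashed line is the density over all later introns, 15.1 per Mb, and RBFOX3 stands above it with 46 peaks while ADGRL3 has none in 663 kb.

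Other long genes had no member. ADGRL3, a latrophilin adhesion receptor, had 663 kb of later-intron sequence without a peak, TAFA1 529 kb, DPP10, an auxiliary subunit of potassium channels, 523 kb, CDH18, a cadherin, 497 kb and KCNH7, a potassium channel, 452 kb. None of them had a promoter peak, which was present in 36.5% of all genes. Among genes with 500 kb or more, 42 had one and 110 did not. At the other end, after RBFOX3 the densest genes with at least 200 kb were PRKAG2 (73.3 per Mb), a subunit of AMP-activated kinase, HDAC4 (66.7), CELF4 (58.0) and C10orf90 (48.3). The 17 members of HDAC4, a class II histone deacetylase, had a median fold enrichment of 3.04, whereas the 13 of CELF4, an RNA-binding protein, had 7.97.

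Gene lists drawn from textbook function varied in density. Synaptic adhesion and scaffold genes had a member in 34 of 35 genes, but only 7.06 peaks per Mb of their 31.6 Mb, beside 15.1 over all genes, and a promoter peak in 11.4% beside 36.5%. Over all genes, 32.4% had a member. The synaptic genes are long, with a median of 756 kb of later-intron sequence beside 14.7 kb over all genes, and among all genes with 500 kb or more 98.0% had a member at a density of 9.33 per Mb. Of the 149 genes of that length with a member, 28.2% (21.6 to 35.9) had a promoter peak. Integrin and focal adhesion genes held 18.4 per Mb (17 of 24 genes with a member). Chromatin regulators held 17.7 per Mb (20 of 40), epithelial junction and polarity genes 14.5 (14 of 29) and receptor tyrosine kinase and MAPK genes 12.5 (12 of 26). Their genes were also longer than the 14.7 kb of all genes. The median later-intron sequence was 41.3 kb for integrin, 81.6 kb for chromatin, 21.9 kb for junction and 43.6 kb for kinase genes. Among all genes with 10 to 50 kb, 32.7% had a member, at 18.4 per Mb. At 50 to 200 kb, 69.0% had one, at 16.2 per Mb. HDAC4 alone held 17 of the 67 peaks of the chromatin regulators, and without it the list stood at 14.2 per Mb, below the 15.1 of all genes. Median fold enrichment lay between 5.06 for the chromatin regulators and 5.94 for the synaptic genes, beside 6.16 over all members. Fold enrichment of at least 10 was reached by 12.1% of the 33 members in epithelial junction genes and 26.3% of the 38 in integrin genes, beside 28.5% of all members. In the junction genes, 3 such members were in PARD3. These shares rest on few members and are given without an interval. ILK, in the integrin list, had no eligible sequence.

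Single genes of these lists illustrate the spread. ITGB4, the integrin β4 subunit of hemidesmosomes, held 4 members at fold enrichments of 27.7, 24.7, 3.19 and 3.14. The 2 higher ones, in introns 27 and 26, carried an exact core, and all 4 a matrix site. IGF1R, a receptor tyrosine kinase, had 23.6, 16.9, 10.0 and 3.88, and its lowest member had no matrix site. JARID2, a cofactor of a Polycomb repressive complex, had 5 members between 6.95 and 16.5. PARD3, a polarity scaffold of tight junctions, had 10 members between 3.90 and 16.4, of which 7 were in intron 2, and its 3 highest were among these.

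The TMEM242 gene (chr6:157289025-157323601, minus strand) had 3 members, all in intron 3, which holds the imaged repeats. Those within the repeats had fold enrichments of 1.89 and 1.70, among the lowest of all members, although their summits held 352 and 170 fragments. Their local Input backgrounds were 186 and 99.4 fragments, against the usual floor of 5.90. The member beside the repeats (chr6:157314745-157315047) had a fold enrichment of 5.32 from 114 fragments over a background of 20.6 and carried an exact core on the plus strand, opposite to the host. TMEM242 also had a promoter peak.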

How the data were processed

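RAD21 ChIP-seq of untreated wild-type HCT116 cells (1 library) was analysed. The authors trimmed reads with Trimmomatic 0.39, aligned them with Bowtie2 2.5.3 to GRCh38, removed duplicates with Picard and called peaks with MACS2 2.2.9.1 against Input at q 0.05. The deposited list gives fold enrichment (a ratio to the local background), −log10 p-values and q-values and an integer score, which was not used. Read depth was not given in the list. Fragments and background at each summit were recovered from fold enrichment and p-value, with whole fragment numbers within 0.05 for 56839 of 56853 peaks. The only Input among the samples came from the auxin-treated clone, and its effect on the background was not tested.

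Introns were taken from GENCODE v44 and sequence from GRCh38, with Python 3.11.15 and numpy 2.4.6. Motifs were sought on both strands within 50 bp of summits. Recovery of fragments and motif search were tested on simulated data. Intervals are 95% Wilson and cover counting error only. The named genes were the 10 hosts with the most members, the hosts of the 10 highest members, the 5 longest genes without a member, the 5 densest with at least 200 kb, TMEM242, and the leading genes of 5 lists; CACNA1A, CCL1, RTL1 and SYN3 came from the sequence rule or were named after their values were seen. Members and lists were chosen with earlier results of these data known. A further list and 1 of the 10 highest members are not reported here.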

Additional observations from a re-analysis of the deposited data

How the results depend on the processing

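Of 66 values recomputed under 16 alternative settings, 57 stayed within the interval of the value given above or within 1.5 times it, and 9 did not. With q of at most 1e-05, the share with a CTCF core was 25.4% and the share with fold enrichment of at least 10 was 33.6%, as weak peaks leave the list. With a distance over 5 kb, 6836 members in 3209 host genes remained and 27.6% reached a fold enrichment of 10. With motifs sought within 100 bp, the core share was 23.4% and the AP-1 share 6.05%, in a window that is larger by construction. The core share was 62.3% with 1 mismatch and 66.8% by weight matrix, an alternative added after the data were seen, as were leaving out windows with another exact copy and leaving out of each gene list the gene with most members. No setting moved the coding-strand share of cores outside its interval. No paired analysis was possible because the list comes from 1 library. Replicate spread cannot be given either, and the weakest members rest on 15 fragments.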
